A study of Mus musculus with 8 samples.

Results

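*Bdnf*, *Ntf3* and the receptors *Ntrk2*, *Ntrk3*, *Ngfr*, *Sort1* and *Sorcs2* were followed in mouse hippocampal neurons treated with melanin-concentrating hormone (MCH). They are 7 of the 45706 genes in the deposited count table and were chosen by name, with earlier results of these data known. The study had named *Bdnf* among the genes lowered by MCH in these cultures. All 7 passed the filter on low counts. For *Bdnf*, transcripts were also followed by the 5′ exon they begin with, and for *Ntrk2* and *Ntrk3* by whether they code for the kinase domain or end before it. MCH is a neuropeptide that neurons of the lateral hypothalamus release, and the comparison asks how the transcripts of hippocampal neurons differ after it. The neurons were C57/Bl6 wild type, were taken from embryonic day 18 mice and received 1 µM MCH or the vehicle (H2O) for 4 h. There were 4 wells per treatment, numbered as replicates 1 to 4. The study describes 2 cultures with 2 wells per treatment in each, and the culture of each replicate is not given in the sources used here, so that *P* values measure the spread between wells, some of which share a culture. The labels tag the samples with Alzheimer's disease, whereas their genotype is wild type. All cultures had received 5-fluoro-2′-deoxyuridine, which limits the growth of dividing cells such as glia.

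BDNF and NT-3 (the product of *Ntf3*) are secreted growth factors of the neurotrophin family. Both are made as precursors that proteases cleave. Mature BDNF binds TrkB (*Ntrk2*) and mature NT-3 binds TrkC (*Ntrk3*). These are receptor tyrosine kinases that activate the ERK, phosphoinositide 3-kinase and phospholipase C pathways. The precursors bind p75NTR (*Ngfr*) together with sortilin (*Sort1*) or its relative SorCS2 (*Sorcs2*), and sortilin also sorts the BDNF precursor inside the cell. In the hippocampus BDNF is known for its part in synaptic plasticity. Its gene has several promoters, each with a 5′ exon of its own, and neuronal activity acts mainly on those of exons I and IV. *Ntrk2* and *Ntrk3* also give truncated receptors that bind the ligand and lack the kinase, and truncated TrkB is the main form of astrocytes.

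The wells held 26083936 to 31844861 estimated counts. With the treatment means taken out, the first principal component held 59.8% of the variance and set replicates 1 and 2 of both treatments apart from replicates 3 and 4, called the sides below. The summed level of 5 neuronal markers was similar on the sides, at 3284 to 3406 TPM (the deposited level per length) in replicates 1 and 2 and 3224 to 3254 TPM in replicates 3 and 4, as the label of hippocampal neurons has it. The 8 astrocyte markers summed to 328 to 367 TPM in replicates 1 and 2 and 923 to 1084 TPM in replicates 3 and 4, and each of the 8 was higher in all wells of replicates 3 and 4. Microglial markers stayed between 4.71 and 13.7 TPM in sum, and *Sox10* and *Mog* of the oligodendrocyte lineage were at 0 counts in every well. Treatments are therefore given without a block, with the replicate number as a block (replicate block) and with the side as a block (side block) wherever a block changes a call. In bulk RNA, fewer cells of a type and less RNA per cell cannot be told apart.

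Per length, the neurotrophin system of these cultures, which also held astrocyte markers, was made up mainly of *Bdnf*, *Ntrk2* and *Sort1*. Over the 8 wells, *Bdnf* had a mean level of 128 TPM, *Ntrk2* of 121 TPM and *Sort1* of 120 TPM. Their ranges overlapped, from 99.2 to 164 TPM for *Bdnf*, from 106 to 138 TPM for *Ntrk2* and from 115 to 125 TPM for *Sort1*, so that these 3 are not ordered. *Sorcs2* (54.4 to 70.6 TPM) and *Ntrk3* (48.6 to 63.9 TPM) came next, did not differ beyond their spread and lay below the first 3 in every well. *Ntf3* had 4.51 to 6.80 TPM and *Ngfr* 0.719 to 1.96 TPM, so that p75NTR was the least abundant member in each well. Of the relatives, *Ntf5*, which codes for neurotrophin 4, had between 0 and 4 counts in a well. The sortilin relatives *Sorcs3* and *Sorcs1* had 30.9 to 40.2 TPM and 4.55 to 7.88 TPM. *Sorl1* had 28.8 to 34.4 TPM in 6 wells, with 84.6 TPM in vehicle replicate 2 and 55.5 TPM in MCH replicate 1.

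Of the 7 members, *Bdnf* had the MCH-treated wells apart from the vehicle-treated wells, and in the other 6 the treatments overlapped. Such separation was found in 6.03% of the 14962 genes tested. *Bdnf* (ENSMUSG00000048482, chromosome 2 of GRCm38, 109674700 to 109727007, plus strand) had 361, 390, 292 and 301 CPM (counts scaled to a common library size) in vehicle replicates 1 to 4. With MCH the values were 287, 287, 226 and 233 CPM. All 4 MCH-treated wells lay below all 4 vehicle-treated wells, and on both treatments replicates 3 and 4 lay below replicates 1 and 2. Each MCH-treated well was 20.4% to 26.3% below the vehicle-treated well with its number. The means were 336 ± 47.4 CPM with vehicle and 258 ± 33.5 CPM with MCH (SD, *n* = 4 wells), a log2 fold change (log2FC) of −0.38 with a standard error (SE) of 0.12. Without a block the difference did not pass the threshold (adjusted *P* = 0.41 in edgeR, whose quasi-likelihood *P* values were adjusted by Benjamini–Hochberg over the genes tested). In the replicate block *Bdnf* was called lower (edgeR adjusted *P* = 4.68e-07), as it was in the side block (edgeR adjusted *P* = 1.35e-07). The log2 difference was −0.38 (replicates 1 and 2) and −0.37 (replicates 3 and 4) within the sides. Over the 9 alternatives other than leaving out wells, the adjusted *P* ranged from 1.16e-27 to 0.805.

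**Figure D1:**
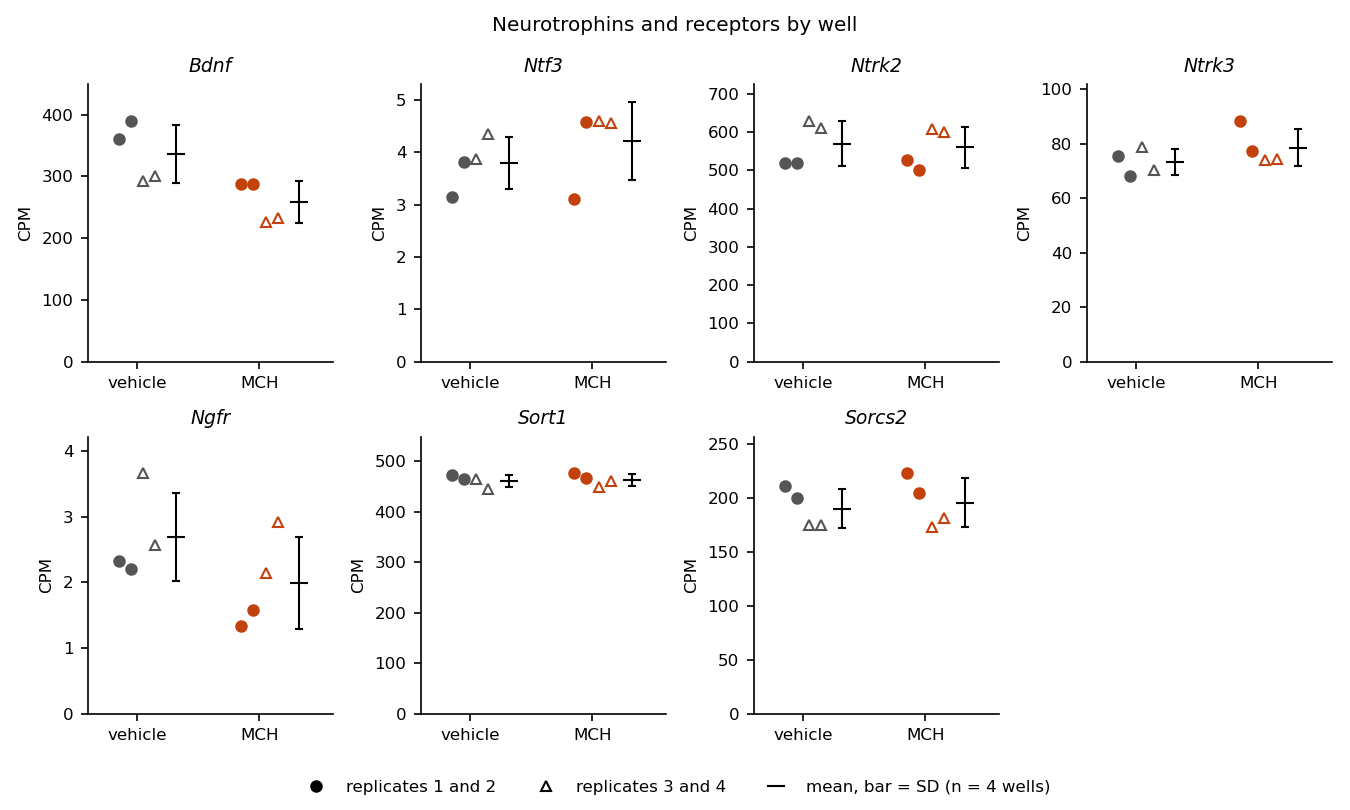
Level of each of the 7 genes in each well, in CPM on the vertical axis (starting at 0), for vehicle (grey) and MCH (orange). Filled circles are replicates 1 and 2, open triangles replicates 3 and 4, and bars give the mean and SD of 4 wells. *Bdnf* is the gene whose MCH-treated wells (226 to 287 CPM) all lie below its vehicle-treated wells (292 to 390 CPM).

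Without a block 0 of the 7 members were called by edgeR, where 0.234% of all genes tested were called, and *Bdnf* alone had an unadjusted *P* under 0.05, as 8.5% of all genes tested did. With the replicate block 1 of the 7 was called, against 3.98% of all genes, and with the side block 1 of the 7, against 4.46%. DESeq2 without a block called 1.39% of the genes it gave an adjusted *P* for and did not call *Bdnf* (adjusted *P* = 0.0658, DESeq2). It gave no adjusted *P* for *Ntf3* and *Ngfr*, and called none of the other 4 members. The median log2FC of all genes tested was −0.0027.

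The second ligand, *Ntf3* (ENSMUSG00000049107, chromosome 6, 126101412 to 126166910, minus strand), was low, with 81 to 133 counts in a well. It had 3.14, 3.81, 3.88 and 4.35 CPM in vehicle wells and 3.10, 4.58, 4.60 and 4.56 CPM in MCH wells. The treatments overlapped, and MCH replicate 1 lay apart from the other 3 MCH-treated wells. The log2FC was 0.15 (SE 0.17, edgeR adjusted *P* = 0.908), and ranged from 0.075 to 0.275 with each well left out in turn.

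No difference was called in the Trk receptors at the gene level. *Ntrk2* (ENSMUSG00000055254, chromosome 13, 58806569 to 59133970, plus strand) had 518, 519, 630 and 610 CPM in vehicle wells and 528, 502, 607 and 601 CPM in MCH wells. The wells parted by side, with replicates 3 and 4 higher on both treatments, and the treatments overlapped. The log2FC was −0.02 (SE 0.087, edgeR adjusted *P* = 1 after rounding). *Ntrk3* (ENSMUSG00000059146, chromosome 7, 78175959 to 78738012, minus strand) had 75.6, 68.3, 79.0 and 70.4 CPM in vehicle wells and 88.5, 77.3, 74.1 and 74.5 CPM in MCH wells. Within the sides the log2 difference was 0.20 (replicates 1 and 2) and −0.0054 (replicates 3 and 4). The log2FC over all wells was 0.10 (SE 0.068, edgeR adjusted *P* = 0.77).

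No difference was called in the receptors of the precursors either. *Ngfr* (ENSMUSG00000000120, chromosome 11, 95568818 to 95587735, minus strand) had 2.32, 2.21, 3.67 and 2.56 CPM in vehicle wells and 1.34, 1.58, 2.15 and 2.91 CPM in MCH wells. MCH replicate 4 lay within the vehicle range and the other 3 MCH-treated wells below it. With 42 to 104 counts in a well, the log2FC of −0.43 had a SE of 0.27 (edgeR adjusted *P* = 0.752) and ranged from −0.67 to −0.24 with each well left out in turn. *Sort1* (ENSMUSG00000068747, chromosome 3, 108284082 to 108361511, plus strand) was the steadiest member, with 473, 464, 464 and 445 CPM in vehicle wells and 476, 466, 448 and 461 CPM in MCH wells. Its log2FC was 0.0058 with a SE of 0.035 (edgeR adjusted *P* = 1 after rounding), the smallest error among the members. *Sorcs2* (ENSMUSG00000029093, chromosome 5, 36017180 to 36398139, minus strand) had 211, 200, 175 and 175 CPM in vehicle wells and 223, 205, 173 and 182 CPM in MCH wells, with replicates 1 and 2 higher on both treatments. Its log2FC was 0.04 (SE 0.093, edgeR adjusted *P* = 0.992). The relatives *Sorcs1*, *Sorcs3* and *Sorl1* had log2FCs of −0.03, 0.05 and 0.02, and none was called in any fit.

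**Figure D2:**
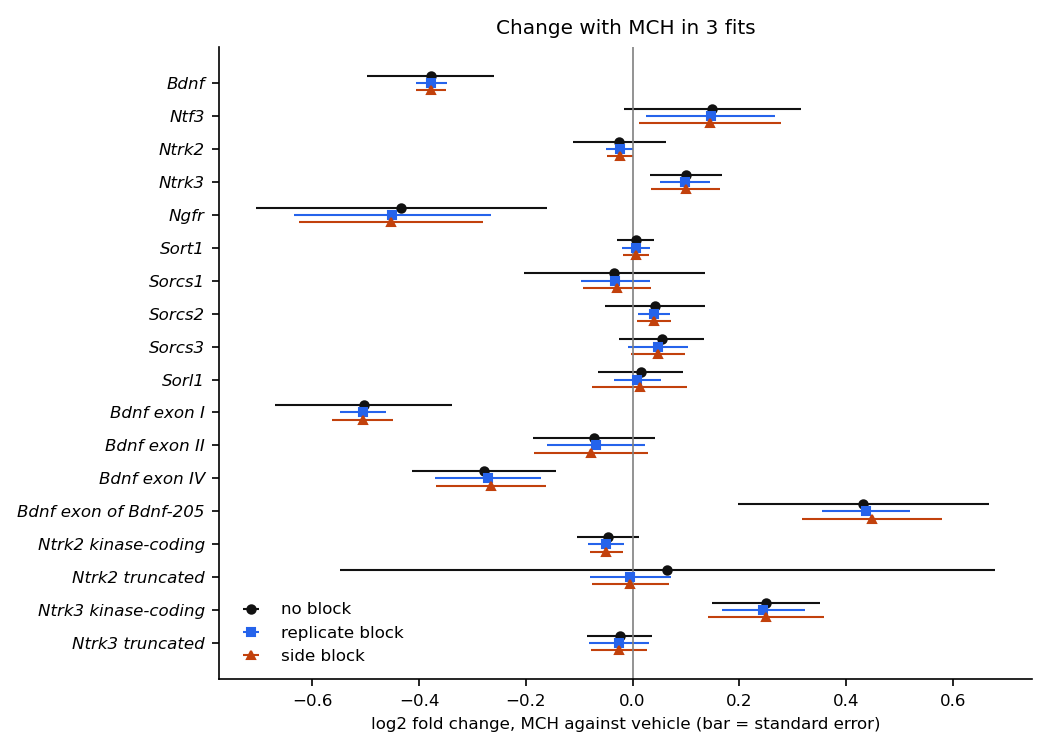
Log2 fold change of MCH against vehicle (horizontal axis) for 10 ligand and receptor genes and for groups of their transcripts, with bars of 1 SE, from edgeR without a block (black circles), with the replicate block (blue squares) and with the side block (orange triangles). The bars of *Bdnf* shrink with a block, from a SE of 0.12, as do those of truncated *Ntrk2*, from 0.61, whose estimate goes from 0.07 without a block to −0.0043 and −0.0048 with the replicate and side blocks.

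*Bdnf* transcripts differ in the 5′ exon and share the last one, of 3626 bases (chromosome 2, 109723382 to 109727007), which holds all or nearly all of the coding sequence. All 11 annotated transcripts were in the deposited tables, and they begin in 8 groups of overlapping first exons. Exons I to IV are named here by their order in the gene, and the others by their transcript. Counts of a group rest on the reads in its own exon, since salmon shares out the reads of the last exon by estimate. The 5′ exon of 640 bases at 109674700 to 109675339, exon I (*Bdnf-201*), was the main start in each well. It has 257 codons, against 249 for the transcripts from exons II, III and IV.

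The exon I transcript had 277, 319, 218 and 228 CPM in vehicle wells and 212, 212, 145 and 165 CPM in MCH wells. The MCH-treated wells all lay below the vehicle-treated wells, as in 2.4% of the 23004 start groups tested, counting the same direction. The means were 260 ± 46.7 and 184 ± 34.1 CPM (SD, *n* = 4 wells), with a log2FC of −0.50 (SE 0.17). Without a block this did not pass the threshold over all start groups (edgeR adjusted *P* = 0.694), where 0.013% of the groups were called. It was called lower in the side block (edgeR adjusted *P* = 0.0482), where 0.122% were called, and not in the replicate block (edgeR adjusted *P* = 0.204), which called 0%. The log2 difference was −0.49 (replicates 1 and 2) and −0.53 (replicates 3 and 4).

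The other starts were a small part of the gene. Exon II (3 transcripts, 109675897 to 109676395) had 26.1 to 36.5 CPM in vehicle wells and 26.6 to 32.6 CPM in MCH wells, a log2FC of −0.07 (SE 0.11, edgeR adjusted *P* = 1 after rounding). Exon IV (*Bdnf-209*, 109692436 to 109692774) had 34.3, 36.6, 26.2 and 26.9 CPM in vehicle wells and 23.9, 28.9, 27.1 and 22.2 CPM in MCH wells. These overlapped, with a log2FC of −0.28 (SE 0.13, edgeR adjusted *P* = 0.881). The exon of *Bdnf-205* (109693563 to 109693909) had 12.2, 11.2, 19.6 and 17.0 CPM in vehicle wells and 18.6, 15.3, 27.6 and 19.4 CPM in MCH wells. Its mean was higher in the MCH-treated wells of both sides, without a call (log2FC 0.43, SE 0.24, edgeR adjusted *P* = 0.916). Exon III (*Bdnf-206*) had 0.182 to 2.26 CPM. The starts of *Bdnf-211*, of *Bdnf-203* and *Bdnf-204*, and of *Bdnf-202* had 0 counts in all 8 wells, which allows up to 3 counts in each.

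Summed over the starts, *Bdnf* had 78.4 CPM less with MCH, as a difference of means. The exon I transcript had 76.7 CPM less, exon IV 5.44 CPM less and exon II 1.52 CPM less, whereas the exon of *Bdnf-205* had 5.25 CPM more. Nearly the whole of the difference of the gene was thus counted on transcripts that begin in exon I. These transcripts also held a mean of 76.7% of the *Bdnf* counts in vehicle wells.

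As a share of the gene, exon I made up 76.5%, 81.2%, 74.1% and 75.05% of the *Bdnf* counts in vehicle wells and 73.5%, 73.6%, 63.5% and 70.6% in MCH wells. The treatments did not overlap, by a narrow margin. The difference of means was −6.40 percentage points (two-sided exact permutation test over 70 assignments, *P* = 0.0286, the smallest it can give, and 0.0762 adjusted over the 8 shares of *Bdnf*, *Ntrk2* and *Ntrk3*). Permuted within the replicate numbers the exact *P* was 0.125 and within the sides 0.0556, again the smallest values those tests can give. The exon II share was higher with MCH, at 10.8% to 11.7% against 6.64% to 10.3% with vehicle, by 2.05 points (exact permutation *P* = 0.0286, adjusted 0.0762). The share of the *Bdnf-205* exon was 2.84% to 6.68% in vehicle wells and 5.31% to 12.1% in MCH wells, by 3.43 points (exact permutation *P* = 0.143, adjusted 0.286). The exon IV share differed by 0.793 points (exact permutation *P* = 0.343, adjusted 0.457). None of the shares thus passed the threshold after adjustment, and the shares of 1 gene add up to a whole, so that they are not independent.

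**Figure D3:**
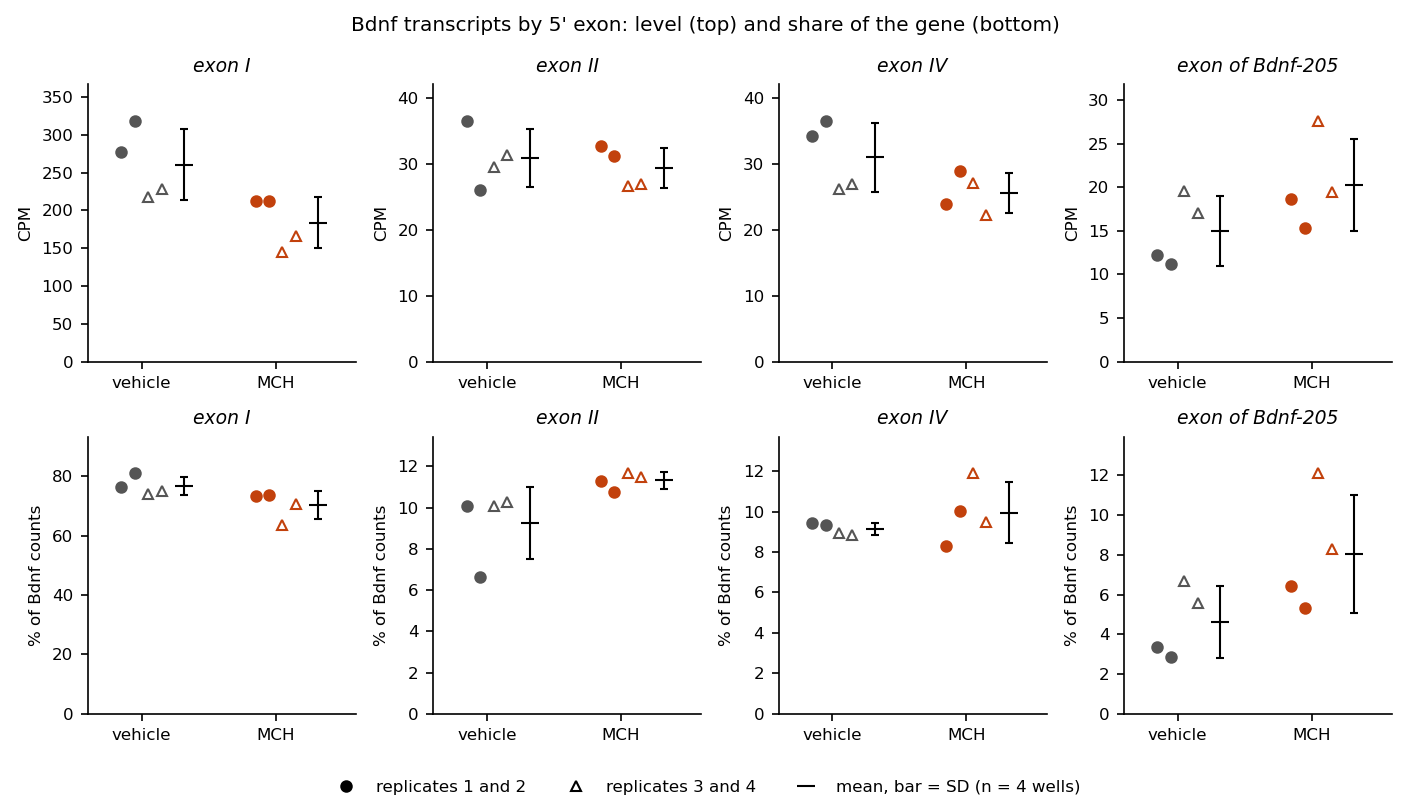
*Bdnf* transcripts by 5′ exon in each well. The upper row gives CPM, the lower row the percent of the *Bdnf* counts, for vehicle (grey) and MCH (orange), with filled circles for replicates 1 and 2, open triangles for replicates 3 and 4 and bars for mean and SD of 4 wells. Exon I, with 145 to 319 CPM, is far above the other starts, and its MCH-treated wells lie below the vehicle-treated wells in both rows.

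The stretches before exons I and IV are shown because they are the promoters on which activity is known to act. Exon I transcripts also held most of the *Bdnf* counts and of the difference of means above, which was not called without a block. The stretches are the 250 bases before each start in RefSeq on GRCm38 (plus strand). Capitals mark the letters TCACGTNA, a variant of the cAMP response element.
*Bdnf* exon I, chr2:109674450-109674699: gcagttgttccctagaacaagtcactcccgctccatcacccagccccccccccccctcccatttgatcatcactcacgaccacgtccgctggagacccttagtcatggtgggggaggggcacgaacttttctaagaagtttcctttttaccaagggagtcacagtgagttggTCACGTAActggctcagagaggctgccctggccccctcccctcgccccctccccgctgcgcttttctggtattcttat
*Bdnf* exon IV, chr2:109692186-109692435: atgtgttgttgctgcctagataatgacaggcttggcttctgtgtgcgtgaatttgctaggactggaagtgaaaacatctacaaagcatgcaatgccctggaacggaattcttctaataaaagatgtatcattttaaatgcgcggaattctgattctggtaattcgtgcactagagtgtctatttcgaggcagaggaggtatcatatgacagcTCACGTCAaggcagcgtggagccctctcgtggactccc
The motif lies 78 bases before the start of exon I and 38 bases before that of exon IV. On either strand, TCACGTNA was in 1.40% of the 32851 windows of 250 bases in the RefSeq table, and in these 2 of the 11 windows found for 4 members (*Bdnf*, *Ntf3*, *Ngfr* and *Ntrk2*). The full element TGACGTCA was in 1.55% of all windows and in 0 of the 11. The letters TCGTG, the core that NPAS4 and its relatives bind, were in 13.3% of all windows and 2 times in each of the exon I and exon IV windows, with no overlap with TCACGTNA, and in none of the other 9. Windows before exon II and the exon of *Bdnf-205* were not analysed here. TCACGTNA covers the letters of both marked sites, TCACGTAA and TCACGTCA, so its count in these windows is no test of enrichment. A match is a description of letters and not of a bound site.

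The forms of the Trk receptors separate at a coding junction. The last 24 shared coding bases are printed in lower case and the bases after the junction in capitals, on GRCm38 and the strand of the gene, because these are the letters that part a kinase receptor from a truncated receptor.
*Ntrk2-202*, truncated: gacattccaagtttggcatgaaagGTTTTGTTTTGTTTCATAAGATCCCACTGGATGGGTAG
*Ntrk2-201*, kinase-coding: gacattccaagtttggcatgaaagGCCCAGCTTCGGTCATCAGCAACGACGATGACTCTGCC
*Ntrk3-202*, truncated: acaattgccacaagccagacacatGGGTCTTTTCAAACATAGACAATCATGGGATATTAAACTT
*Ntrk3-201*, kinase-coding: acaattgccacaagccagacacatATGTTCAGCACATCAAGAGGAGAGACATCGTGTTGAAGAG
After the junction, truncated *Ntrk2* has 35 coding bases (chromosome 13, 58932023 to 58932057) and then a stop codon, which is the end of the line above, against 1070 coding bases in the kinase form. The truncated receptor has 476 codons and the kinase receptor 821. Truncated *Ntrk3* has 251 coding bases after the junction, the first 135 of them in an exon of its own (chromosome 7, 78304292 to 78304426, minus strand), and 612 codons in all against 825. The tables held 2 of the 10 annotated *Ntrk2* transcripts and 6 of the 20 annotated *Ntrk3* transcripts, and some of their lengths differ from the annotation used here. The deposited length of *Ntrk3-201* is 3300 bases against 19703, so that levels per length of *Ntrk3* depend on the models the authors used.

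Kinase-coding *Ntrk2* was the main form, and no difference between treatments was called. It had 465, 462, 441 and 444 CPM in vehicle wells and 482, 457, 404 and 412 CPM in MCH wells, a log2FC of −0.05 (SE 0.059, edgeR adjusted *P* = 0.993). Truncated *Ntrk2* had 55.2, 58.6, 191 and 172 CPM in vehicle wells and 51.5, 48.8, 205 and 193 CPM in MCH wells. The wells parted by side and not by treatment, with a mean in replicates 3 and 4 that was 3.55 times that in replicates 1 and 2. Its log2FC with MCH was 0.07 with a SE of 0.61 (edgeR adjusted *P* = 0.999), and −0.0048 with a SE of 0.072 in the side block (edgeR adjusted *P* = 0.989). As a share of *Ntrk2* counts, the truncated form was 9.65% to 11.2% in replicates 1 and 2 and 27.9% to 33.7% in replicates 3 and 4. The difference between treatments was 1.23 percentage points (exact permutation *P* = 0.686, adjusted 0.686).

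The summed level of the astrocyte markers moved with truncated *Ntrk2*, and was 2.87 times as high in replicates 3 and 4. Among them *Gfap*, an intermediate filament of astrocytes, had 120 to 167 CPM in replicates 1 and 2 and 589 to 675 CPM in replicates 3 and 4. *Aqp4*, the water channel of their end feet, had 7.32 to 10.998 and 52.1 to 59.7 CPM. *Slc1a2*, a glutamate transporter, had 674 to 812 and 812 to 940 CPM, the smallest ratio of the list at 1.20. Markers of the oligodendrocyte lineage, microglia, and fibroblasts and vessels were 2.68, 2.13 and 2.53 times as high in replicates 3 and 4, those of excitatory neurons 0.82 times and those of inhibitory neurons 0.728 times. The part of these cells in the level of truncated *Ntrk2* was not tested, and since the sides were read from the same counts, no test is given of a difference between them.

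**Figure D4:**
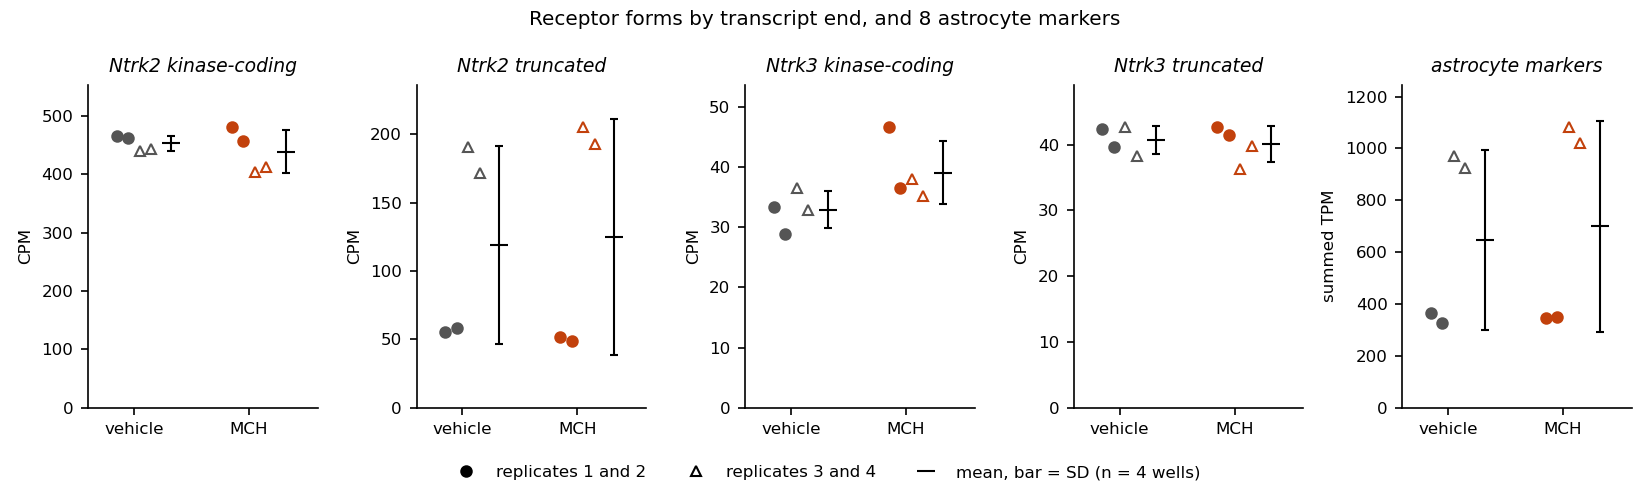
Kinase-coding and truncated *Ntrk2* and *Ntrk3* in each well, in CPM, and in the panel at the right the summed level of 8 astrocyte markers in TPM. Filled circles are replicates 1 and 2, open triangles replicates 3 and 4, and bars give the mean and SD of 4 wells. Truncated *Ntrk2* (48.8 to 58.6 against 172 to 205 CPM) and the astrocyte markers (328 to 367 against 923 to 1084 TPM) part the wells in the same way on both treatments, whereas truncated *Ntrk3* does not.

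*Ntrk3* behaved otherwise. Its truncated form had 42.4, 39.7, 42.6 and 38.3 CPM in vehicle wells and 42.7, 41.5, 36.4 and 39.8 CPM in MCH wells, with no split by side. Its log2FC was −0.02 (SE 0.061, edgeR adjusted *P* = 0.999). The kinase-coding transcripts, 3 in number, had 33.3, 28.9, 36.4 and 32.8 CPM in vehicle wells and 46.7, 36.5, 38.0 and 35.2 CPM in MCH wells. MCH replicate 1 was the highest well, and MCH replicate 4 lay within the vehicle range. The log2FC was 0.25 (SE 0.10), which was not called over the 21469 end groups tested (edgeR adjusted *P* = 0.704), where 0.0606% of the groups were called. The truncated share was 55.4%, 57.8%, 53.6% and 53.9% in vehicle wells and 47.6%, 53.2%, 48.1% and 53.1% in MCH wells, without overlap. It was lower by 4.67 percentage points on average, in each of the 4 replicate numbers (exact permutation *P* = 0.0286, the smallest of that test, and 0.0762 adjusted over the 8 shares). Transcripts with an insert in the kinase-coding part (*Ntrk3-205*, 839 codons, and *Ntrk3-206*, 864 codons) made up 12.9% to 20.6% of *Ntrk3* in vehicle wells and 15.3% to 23.5% in MCH wells (exact permutation *P* = 0.257, adjusted 0.411).

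Among the factors that act on the *Bdnf* promoters, *Npas4* was called without a block. Of 25 such factors 24 were tested, and without a block edgeR called 1 lower and 0 higher, against 0.207% of all genes lower and 0.0267% higher, and 7 had an unadjusted *P* under 0.05, as 8.5% of all genes did. The median log2FC of the list was −0.0036, with 12 factors lower and 12 higher. The MCH-treated wells lay below the vehicle-treated wells in 2 factors and above them in 2, where 6.03% of all genes separated in either direction. Those above were *Carf* (log2FC 0.17, edgeR adjusted *P* = 0.347) and *Crebbp* (log2FC 0.13, edgeR adjusted *P* = 0.532). *Npas4*, a transcription factor of activity that binds *Bdnf* promoters, fell from 38.0 ± 2.33 to 19.8 ± 3.12 CPM (SD, *n* = 4 wells), a log2FC of −0.94 (SE 0.11, edgeR adjusted *P* = 0.0135). The call was lost without vehicle replicate 1, 2 or 4 or MCH replicate 4 (edgeR adjusted *P* up to 0.0762), with log2FCs of −1.002 to −0.84 over the 8 wells left out in turn. With the replicate block 3 were lower and 0 higher, against 2.25% and 1.73% of all genes, and with the side block 3 and 0, against 2.61% and 1.85%. The other 2 were *Crem*, a cAMP-responsive factor, with a log2FC of −0.32 (edgeR adjusted *P* = 0.501 without a block, 0.00874 with the replicate block), and *Bhlhe40*, a repressor of the basic helix-loop-helix family, with −0.30 (edgeR adjusted *P* = 0.515 and 0.00573).

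Among 19 genes of the processing and release of neurotrophins, 17 were tested and 0 were called without a block by edgeR, against 0.234% of all genes. In that fit 3 had an unadjusted *P* under 0.05 (8.5% of all genes), among them *Pcsk1* and *Furin*. The median log2FC was −0.01. *Pcsk1*, a protease of the regulated secretory pathway, had 80.5 ± 3.60 CPM in vehicle wells and 68.2 ± 3.33 CPM in MCH wells (SD, *n* = 4 wells), without overlap (log2FC −0.24, edgeR adjusted *P* = 0.126). *Furin*, a protease that cleaves neurotrophin precursors in the Golgi, had 77.6 ± 2.71 and 70.6 ± 1.63 CPM, also without overlap (log2FC −0.14, edgeR adjusted *P* = 0.303). With the replicate block 4 of the list were called lower and 0 higher (2.25% and 1.73% of all genes), among them *Pcsk1* (edgeR adjusted *P* = 0.000983), *Furin* (edgeR adjusted *P* = 0.0494) and *Syt4* (edgeR adjusted *P* = 0.0286), a synaptotagmin of dense-core vesicles. With the side block 3 were lower (2.61% of all genes), and these were *Pcsk1*, *Furin* and *Syt4*. *Pcsk2*, the second protease of that pathway, had a log2FC of 0.08 (edgeR adjusted *P* = 0.594).

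On the receptor side, all 15 genes of p75NTR partners and signalling were tested. Without a block edgeR called 1 higher and 0 lower, against 0.0267% of all genes higher and 0.207% lower. In that fit 2 had an unadjusted *P* under 0.05 (8.5% of all genes), and the median log2FC was −0.02. *Rtn4r*, the Nogo receptor, which signals through p75NTR, rose from 61.1 ± 1.65 to 74.4 ± 3.40 CPM (SD, *n* = 4 wells), a log2FC of 0.28 (SE 0.042, edgeR adjusted *P* = 0.0376). The treatments did not overlap, and both blocks called it, but the call was lost without any of the 8 wells (edgeR adjusted *P* from 0.0872 to 0.194, log2FC 0.26 to 0.31) and in limma voom and with the length offset (adjusted *P* up to 0.141). With either block *Bex1*, an adaptor of p75NTR, was lower as well (log2FC −0.14, edgeR adjusted *P* = 0.703 without a block, 0.0341 with the replicate block). Of 26 Trk adaptors and effectors, all tested, edgeR called 0 without a block, against 0.234% of all genes. In that fit 4 had an unadjusted *P* under 0.05 (8.5% of all genes), and the median log2FC was −0.01. With the replicate block 1 of the 26 was called higher (1.73% of all genes), and with the side block 2 were called higher and 1 lower (1.85% and 2.61% of all genes). *Pik3r1*, a regulatory subunit of phosphoinositide 3-kinase, had 118 ± 11.4 CPM in vehicle wells and 144 ± 6.41 CPM in MCH wells, without overlap (log2FC 0.28, edgeR adjusted *P* = 0.194 without a block, 0.000133 with the replicate block). The side block also called *Nedd4l*, a ubiquitin ligase, higher (edgeR adjusted *P* = 0.0383) and *Dok5*, an adaptor of Trk receptors, lower (edgeR adjusted *P* = 0.0367). Without a block, the adjusted *P* in edgeR was 0.559 for *Nedd4l*, 0.27 for *Dok5* and 0.546 for *Crkl*, an adaptor of the ERK pathway with a log2FC of −0.10.

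The 18 genes known to respond to TrkB and ERK signalling in neurons had the median furthest from 0 among these lists, and many of them respond to other signals too. All 18 had a fold change below 0, against 7637 of the 14962 genes tested, with a median log2FC of −0.35. The list was written with earlier results of these data known, and the study had named *Fos*, *Arc* and *Spry2* as lowered by MCH. Its shares against all genes are therefore a description and no test of the list. The MCH-treated wells lay below the vehicle-treated wells in 10 of the 18, against 2.96% of all genes. Without a block edgeR called 4 lower and 0 higher, against 0.207% of all genes lower and 0.0267% higher. Of the 18, 11 had an unadjusted *P* under 0.05 in that fit (8.5% of all genes). *Fos*, an immediate early transcription factor, fell from 62.7 ± 7.09 to 33.4 ± 2.36 CPM (log2FC −0.91, edgeR adjusted *P* = 0.00492), and *Arc*, an immediate early gene of synapses, from 56.2 ± 1.86 to 37.3 ± 2.45 CPM (log2FC −0.59, edgeR adjusted *P* = 0.00492). *Spry2* and *Spry4*, feedback inhibitors of receptor tyrosine kinase signalling, fell from 98.2 ± 7.39 to 67.9 ± 3.57 CPM (log2FC −0.53, edgeR adjusted *P* = 0.0135) and from 69.7 ± 2.94 to 55.3 ± 2.56 CPM (log2FC −0.33, edgeR adjusted *P* = 0.0281). These errors are SD with *n* = 4 wells. *Fos* and *Arc* kept their calls with each of the 8 wells left out, whereas *Spry2* was not called without vehicle replicate 1 or 4 or MCH replicate 4 (edgeR adjusted *P* up to 0.0745). *Spry4* was called in 2 of the 8, without vehicle replicate 3 or MCH replicate 1, and otherwise had an adjusted *P* of up to 0.166 in edgeR. The replicate block called 10 of the 18 lower and the side block 9, against 2.25% and 2.61% of all genes. Among those added were the ERK phosphatases *Dusp6* (log2FC −0.48, edgeR adjusted *P* = 0.0563 without a block) and *Dusp4* (−0.42, 0.0941). *Vgf*, a secreted neuropeptide precursor, was not called in these 3 fits (log2FC −0.13, edgeR adjusted *P* = 0.749).

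By the Pearson correlation of log2 CPM over the 8 wells, the 5 genes most like *Bdnf* among the other genes tested were *Cerk* (*r* = 0.988), *Nt5dc3* (0.987), *Utp4* (0.987), *Ecd* (0.987) and *Rin1* (0.983). The wells share treatments and sides, so this is a description. Like *Bdnf*, all 5 had lower means in MCH-treated wells on each side and lower means in replicates 3 and 4, but in a narrower range. *Rin1* had 51.9 to 62.9 CPM in vehicle wells and 43.9 to 53.0 CPM in MCH wells, and *Nt5dc3* 369 to 395 and 336 to 365 CPM. In *Cerk*, *Ecd* and *Rin1* the treatments overlapped.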

How the data were processed

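Before deposition, the authors ran nf-core/rnaseq with salmon on GRCm38. The deposited gene and transcript tables hold estimated counts, unscaled, and the authors' salmon TPM adds scaling for length and depth. salmon splits the reads of shared exons by estimate. Groups come from the sample labels.

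Identifiers were matched to GENCODE vM21, which may differ from the authors' annotation (45143 of 45706 genes named, transcripts with 99.5% of the reads matched). Transcripts with overlapping first or last exons were summed to start or end groups. Rounded counts were compared in R 4.3.3 with edgeR 4.0.16 (TMM, filterByExpr with minimum count 10 and total 15, quasi-likelihood F test without a block, Benjamini–Hochberg threshold 0.05), which was tested on simulated data. The SE is the log2 fold change over the square root of F. Isoform shares were compared by exact permutation. Floors of 3 counts cover counting error only. Alternatives were the replicate and side blocks, DESeq2 1.42.0 (also with the side block), its size factors, limma 3.58.1 voom, no filter, a stricter filter (CPM of 1 in 4 wells), a length offset and leaving out each well.

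Members, lists and tests were chosen with earlier results of these data known. Named are the members, their relatives and expressed transcripts, and the 5 genes most like *Bdnf*. From each list, the genes past the threshold are named, or else the 4 of lowest *P*. Genes called with a block alone, and *Carf* and *Crebbp*, were added after their values were seen. Deviations from treatment means correlated at 0.445 to 0.545 in same-numbered wells, 0.475 to 0.521 in other wells of a side and −0.548 to −0.438 across sides. All same-number values exceed 0.1, the rule used for pairing, so the numbers were taken to pair wells, on the counts alone. The other wells of a side exceed it as well, so the counts do not tell a pairing by number from the side. Some genes of the lists are not reported here.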

Additional observations from a re-analysis of the deposited data

Results flagged for a closer look

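Among 59 groups of 4 wells, 4 held a well that stood apart from the other 3 by Dixon's test of its gap to the nearest other well against the range, at 95%. Chance alone gives about 1 in 20. MCH replicate 1 stood apart in 2 genes. It had 3.10 CPM of *Ntf3*, against 4.56 to 4.60 CPM in the rest of its group, and 224 CPM of *Sorl1*, with the others at 175 to 180 CPM. Vehicle replicate 2 had an exon II share of *Bdnf* of 6.64%, with the other vehicle-treated wells at 10.1% to 10.3%. Vehicle replicate 4 had 20.6% of its *Ntrk3* counts on transcripts with an insert, with the others at 12.9% to 13.9%.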

How the results depend on the processing

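The count of called genes (35) was 596 with the replicate block, 668 with the side block, 156 by DESeq2, 533 by DESeq2 with the side block and 7 with the length offset, and 4 to 29 with a well left out. Start groups (3 called) gave 28, 189 and 8 with the side block, DESeq2 and the stricter filter. With the replicate block edgeR called 0, with 2050 at an unadjusted *P* under 0.05, and with a well left out 0 to 2, with 1058 to 1745. End groups (13 called) gave 40, 157 and 157 with the replicate block, the side block and DESeq2, 27 without a filter and 22 with the stricter one, and 0 to 7 with a well left out, with 1070 to 1939 at an unadjusted *P* under 0.05.

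*Bdnf* stayed lower in all fits run (log2 fold change −0.43 to −0.29 with a well left out). Log2 fold changes near 0 turned sign. That of *Sorl1* was −0.34 with the length offset, and that of truncated *Ntrk2* −0.0043 and −0.0048 with the replicate and side blocks. With a well left out the ranges were −0.15 to 0.019 for *Bdnf* exon II, −0.23 to 1.08 for exon III, −0.29 to 0.39 for truncated *Ntrk2*, −0.062 to 0.032 for *Ntrk2*, −0.057 to 0.020 for truncated *Ntrk3*, −0.125 to 0.080 for *Sorcs1*, −0.024 to 0.105 for *Sorcs2*, −0.019 to 0.116 for *Sorcs3*, −0.075 to 0.056 for *Sorl1* and −0.0069 to 0.028 for *Sort1*. The causes were not tested.

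For the shares, permuting within replicate numbers (replicate block) or within the sides (side block, chosen after seeing the data) leaves the differences as they are, at −6.40 points for *Bdnf* exon I, 2.05 for exon II and −4.67 for truncated *Ntrk3*, and those exact tests cannot go below 0.125 and 0.0556, so they say nothing about stability. With a well left out they ranged from −7.49 to −4.13, from 1.18 to 2.40 and from −5.58 to −3.71 points, the exon IV share from 0.132 to 1.34 and the truncated *Ntrk2* share from −2.93 to 5.09. The replicate block changed the calls named in the report and no other call of a member. *Ngfr* (42 to 104 counts in a well) and *Ntf3* (81 to 133) were the members with the fewest counts, and the part of depth in their errors was not tested.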
